A study of Mus musculus with 10 samples.

Results

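The genes described here encode the machinery of macroautophagy, from the kinase that starts it to the tether that ends it, together with the MiT/TFE transcription factors. Members were chosen by name: 45 gene symbols were listed, 44 were found among the 13837 genes of the table, and the missing one was Atg9a, the lipid scramblase carried on autophagy vesicles. Kidneys of 5 Rragc +/+ mice were compared with kidneys of 5 Rragc S74N/+ mice, all 3 months old, on a C57BL/6 background and with no agent given according to the labels. Rragc encodes RagC, a GTPase that recruits the kinase complex mTORC1 to lysosomes when nutrients are present. The S74N allele is a germline knock-in that keeps RagC in its active, GDP-bound-like state, so every cell type of the kidney carries it, beside 1 wild-type allele. Each library came from the kidney of 1 mouse, and the labels do not give the animals' sex. The study asked how a modest, lasting rise in this nutrient signal affects the mouse, and the comparison here is of mutant with wild-type kidneys, step by step along autophagy.

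Autophagy encloses cytoplasm in a double membrane that then fuses with the lysosome. The ULK kinase complex starts the process, a class III PI3-kinase complex marks the growing membrane, lipid transfer proteins enlarge it, and a ubiquitin-like conjugation system fixes Atg8 proteins (the LC3 and GABARAP families) to its lipids, where cargo receptors bind. Active mTORC1 restrains autophagy by phosphorylating ULK1 and by keeping the MiT/TFE factors in the cytoplasm; in the nucleus these factors activate lysosomal and autophagy genes. RNA levels do not show where those factors are or how far they are phosphorylated. In the kidney, basal autophagy is known above all for its role in podocytes and the proximal tubule.

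Of the 44 genes, the main test called 1: Gabarapl1, the most abundant Atg8 transcript, fell to 0.636 of its wild-type level. This test was limma on log2(normalized count + 1), with Benjamini-Hochberg adjustment over 13197 genes and a threshold of 0.05. A normalized count is a library's reads on a gene divided by the library's size factor. All 44 genes passed the filter of at least 10 normalized counts in at least 5 mice. The 1 gene called makes up 2.27% of them, against 3.69% of all genes tested (487, of which 220, or 1.67%, were higher and 267, or 2.02%, lower in Rragc S74N/+). At an unadjusted p under 0.05 stood 10 of the 44 genes, or 22.7%, against 15.4% of all genes tested; 3 of them were higher (7.96% of all genes) and 7 lower (7.43% of all genes). Mutant and wild-type mice were fully apart for 2 of the 44 genes, Gabarapl1 and Atg12, or 4.55%, against 5.001% of all genes. Apart from the share at an unadjusted p, these shares are close to those of the genes at large. Nothing is read from them about the genes as a group. An alternative fit, DESeq2 on recovered whole reads, called Gabarapl1 too, and also Map1lc3b lower (adjusted p = 0.0215) and Atg12 higher (0.0292).

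The fold changes were small. The median log2 fold change (Rragc S74N/+ over Rragc +/+) of the 44 genes was -0.05, with 26 genes below 0 and 18 above, and the median over all genes tested was 0.00. Apart from Gabarapl1, the log2 fold changes ran from -0.36 for Atg10 to 0.30 for Atg7. For 38 of the 44 genes the 95% confidence interval of the difference lay inside a 1.5-fold change either way, as it did for 63.7% of all genes tested; this bound was chosen after the values had been seen. The 44 genes were also better measured than most, with a median level of 207.4 normalized counts against 107.3 over all genes. The intervals of the other 6 genes reached past that bound, so a change of 1.5-fold was not excluded for Tfec, Uvrag, Atg10, Optn and Epg5, and that of Gabarapl1 crossed it.

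**Figure D1:**
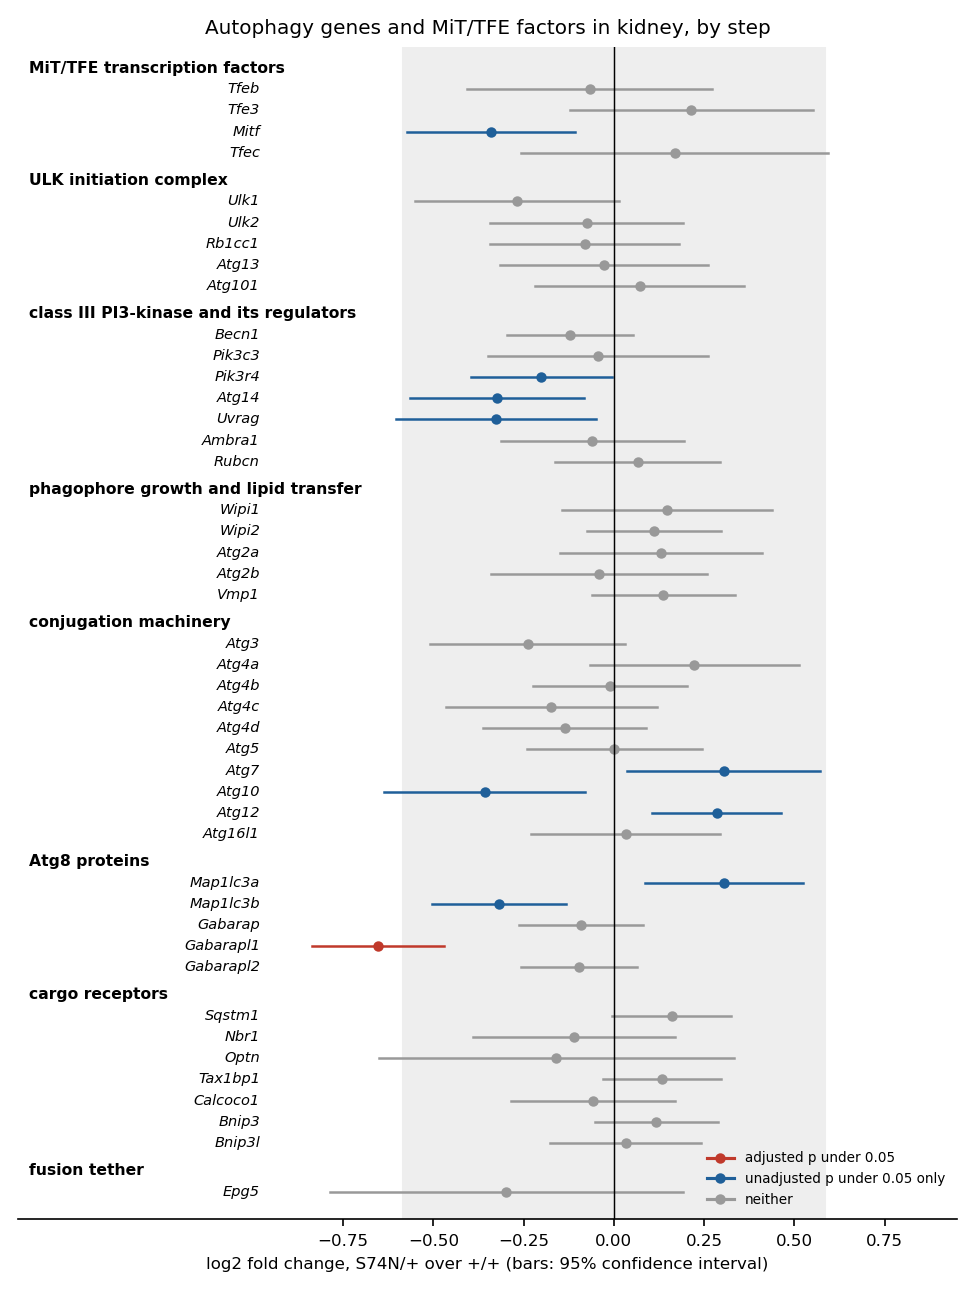
Log2 fold change (horizontal axis, Rragc S74N/+ over Rragc +/+) of each of the 44 genes, grouped by step, with its 95% confidence interval from limma (n = 5 mice per genotype); the grey band spans a 1.5-fold change either way. Gabarapl1 at -0.65 is the only gene with an adjusted p under 0.05 (red), and most intervals cross 0 and stay inside the band.

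**Figure D2:**
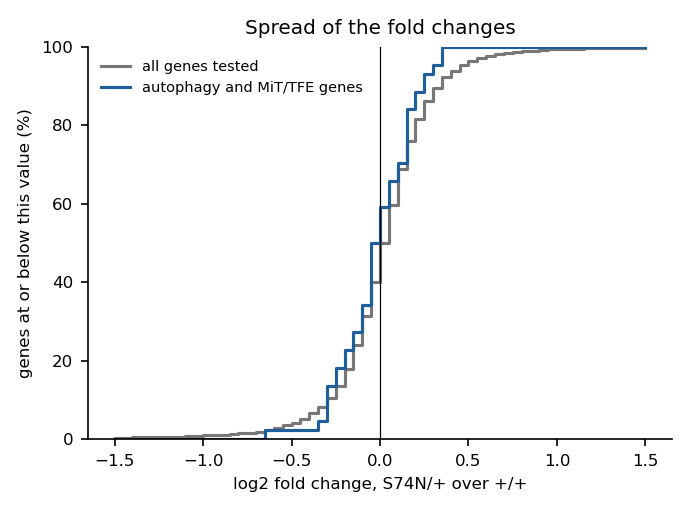
Percent of genes (vertical axis) at or below each log2 fold change (horizontal axis), for the 44 autophagy and MiT/TFE genes (blue) and for all 13197 genes tested (grey). The blue line is at 100% from 0.35 on, while the grey line runs on in both directions.

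The libraries held 6501552 to 7996087 reads on genes, and mitochondrial genes took 23.92% to 30.13% of them. The codes that title the libraries fall into 2 runs of numbers, under 450 (2 Rragc +/+ and 1 Rragc S74N/+) and over 450 (3 and 4); the labels do not say what a run stands for. Over 450, the mitochondrial share was 28.75% to 30.13% in Rragc +/+ and 23.92% to 25.83% in Rragc S74N/+, without overlap; under 450 it was 24.54% and 25.71% in Rragc +/+ and 27.11% in Rragc S74N/+. The part of this share in the values below was not tested. Rragc itself, which a knock-in should still transcribe from both alleles and whose level therefore does not check the genotype, was at 346.9, 247.2, 243.8, 292.6 and 296.8 normalized counts in Rragc +/+ and at 199.2, 248.1, 214.4, 229.3 and 188.8 in Rragc S74N/+ (adjusted p = 0.0678, limma). The log2 fold change of Rragc was -0.40, and 1 of 22 other settings, DESeq2, called it lower (adjusted p = 0.0312). The tissue's markers were present in every library, but those of some nephron segments differed between genotypes. All 3 distal convoluted tubule markers were lower in Rragc S74N/+, with a summed level of 2676 to 3180 normalized counts in Rragc +/+ and 978 to 1327 in Rragc S74N/+. Of 4 thick ascending limb markers, Umod and Kcnj1 were lower, Cldn16 was higher and Slc12a1 was not called (adjusted p = 0.438, limma). Their sum went from 26520 to 35342 down to 11832 to 19837. It mainly followed Umod, the most abundant, at 20404 to 28356 in Rragc +/+ against 7760 to 13505 in Rragc S74N/+. A sum weights its most abundant marker most, here and below, and does not stand for every marker of a segment. Of 7 proximal tubule markers, 2 were higher and 2 lower, with sums of 43604 to 49143 against 47418 to 57142. Of 4 intercalated cell markers, Slc4a1 was lower (adjusted p = 0.0137, limma), with sums of 1014 to 1129.5 against 858 to 1045. None of 4 principal cell markers was called, but all 4 were above 0 and Aqp3 and Scnn1g did not overlap between genotypes, with sums of 982 to 1176 against 1221 to 2193. None of the 6 macrophage markers was called (sums of 1194 to 1598 against 1283 to 1628), while 1 of the 2 measured B-lineage markers, Igkc, was higher (adjusted p = 0.0390, limma). That call was made in 11 of 22 other settings, among them 4 of the 10 fits that left out 1 mouse. It was lost in DESeq2 (adjusted p = 0.0605) and among codes over 450 (0.302, limma). Rragc S74N/+ replicate 5 was far above the other mutant mice, at 4734 normalized counts against 936 to 1960. That kidney was also the highest of all for Aqp2, at 1424.5, and Col1a1, at 728.8, and the lowest for Umod, at 7760. No endothelial, podocyte or stroma marker was called. All 4 endothelial markers were below 0, 2 of them at an unadjusted p under 0.05 in limma, with sums of 1948 to 2191 against 1386 to 2064. Podocyte sums were 686 to 870 against 624 to 848, and stroma sums were 553 to 600 against 467 to 1195. The 4 adipocyte markers and the B-cell markers Cd79a, Cd79b and Ms4a1 were not in the table. In unsorted tissue, fewer cells of a type and less RNA per cell cannot be told apart. The part that these marker shifts have in any value below was not tested.

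None of the 4 MiT/TFE factor genes passed the test. Tfeb, the best known regulator of lysosomal and autophagy genes, was at 83.1, 74.7, 102.1, 57.9 and 61.9 normalized counts in Rragc +/+ and at 77.8, 69.7, 58.9, 74.1 and 75.9 in Rragc S74N/+. Every mutant value lay inside the wild-type range, with a 95% confidence interval of the log2 difference from -0.41 to 0.27 (adjusted p = 0.896, limma; two-sided exact permutation p = 0.698). Tfe3, its close relative with overlapping targets, was at 112.3, 89.8, 125.9, 91.1 and 71.5 in Rragc +/+ and at 113.8, 90.1, 116.6, 101.8 and 144.0 in Rragc S74N/+. The genotypes overlapped over most of their range, and the interval ran from -0.12 to 0.55 (adjusted p = 0.595, limma; exact permutation p = 0.230).

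Mitf, the member best known from melanocytes and the most abundant of the 4 in these kidneys, was at 273.9, 216.1, 289.2, 257.3 and 287.2 normalized counts in Rragc +/+ and at 193.5, 210.9, 236.5, 224.4 and 179.0 in Rragc S74N/+. One wild-type mouse, at 216.1, stood among the mutant values, and the others were above them. The log2 fold change was -0.34 (SE 0.11), which did not pass (adjusted p = 0.114, limma; exact permutation p = 0.0238). Without that wild-type mouse, Rragc +/+ replicate 2, the adjusted p was 0.0497 at a log2 fold change of -0.41, and it was 0.0437 with the run of library codes as a covariate. Tfec, a member expressed in few tissues, was at 41.1, 48.9, 36.3, 40.7 and 43.8 in Rragc +/+ and at 63.6, 51.1, 27.3, 53.4 and 49.6 in Rragc S74N/+. Of the mutant mice, 4 were above every wild-type mouse and 1, replicate 3 at 27.3, was below them all. The log2 fold change was 0.17 (adjusted p = 0.767, limma, and exact permutation p = 0.484). In the fits that left out 1 mouse it ran from 0.06 to 0.36, with a smallest adjusted p of 0.295 in limma. The smallest p that 5 against 5 mice can give in the exact permutation test is 0.00794.

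**Figure D3:**
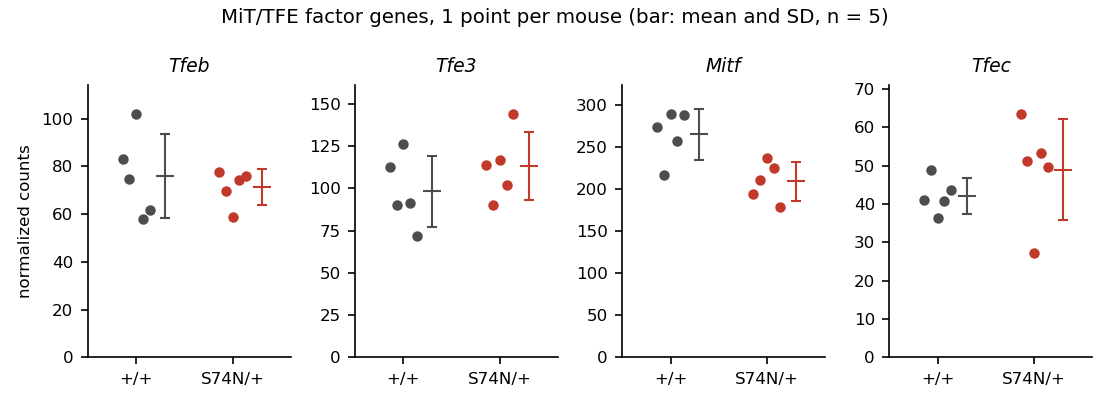
Normalized counts (vertical axes, from 0) of the MiT/TFE factor genes in each Rragc +/+ (grey) and Rragc S74N/+ (red) kidney, with the mean and SD of the 5 mice beside the points. The genotypes overlap for all 4 genes, least so for Mitf, where 1 wild-type mouse at 216.1 stands among the mutant mice.

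MiT/TFE factors bind the E-box letters CACGTG, best in the wider form TCACGTGA or its variant TCATGTGA. These letters were looked for on both strands in RefSeq promoter windows (GRCm38.p6, 250 bases before to 50 after an annotated transcript start; a gene can have more starts than the one shown), which were given for 37 of the 45 genes. CACGTG stood in the windows of 6 of the 37, in 12.2% of their windows against 7.15% of all 32851 windows. The windows that hold it are shown because they carry the letters through which these factors could act on the genes measured here; each is 30 bases, 5′ to 3′ on the gene's strand, with CACGTG in capitals.

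Atg3, chr16:45158723-45158752, + strand: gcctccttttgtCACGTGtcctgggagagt
Atg3, chr16:45158746-45158775, + strand: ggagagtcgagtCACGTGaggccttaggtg
Atg5, chr10:44268313-44268342, + strand: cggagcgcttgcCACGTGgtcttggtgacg
Atg7, chr6:114670952-114670981, + strand: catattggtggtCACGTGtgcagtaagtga
Atg14, chr14:47568418-47568447, - strand: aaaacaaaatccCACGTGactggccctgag
Bnip3, chr7:138909597-138909626, - strand: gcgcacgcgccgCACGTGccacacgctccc
Rubcn, chr16:32868437-32868466, - strand: cgcctagcacatCACGTGtacccaggttag

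The second Atg3 window was the only one with TCACGTGA, which 0.974% of all windows hold, and TCATGTGA stood in none of the 37 genes' windows (0.986% of all). The 6 genes with the letters did not move one way. None was called, the log2 fold change was -0.32 for Atg14 and 0.30 for Atg7, both at an unadjusted p under 0.05, and Atg3 (-0.24), Atg5 (0.00), Bnip3 (0.12) and Rubcn (0.07) were not. A match is a description of the sequence and shows no binding.

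None of the 5 genes of the ULK initiation complex was called, with log2 fold changes from -0.27 to 0.07 and none at an unadjusted p under 0.05. Rb1cc1, which encodes the scaffold FIP200, was the most abundant, at 357.8, 388.6, 612.4, 487.7 and 410.0 normalized counts in Rragc +/+ and 401.2, 381.9, 439.3, 407.2 and 469.0 in Rragc S74N/+. The mutant kidneys lay inside the wild-type range (log2 fold change -0.08, SE 0.12). Ulk1, the kinase that mTORC1 phosphorylates, had the largest difference of the step, with 223.6, 185.0, 289.2, 274.4 and 318.2 in Rragc +/+ against 222.0, 223.9, 192.3, 232.3 and 184.9 in Rragc S74N/+. Of the wild-type mice, 3 were above every mutant mouse and 2 were among them, and the log2 fold change of -0.27 (SE 0.13) did not pass (adjusted p = 0.364, limma). Those 2 mice were the wild-type libraries with codes under 450; among the 3 Rragc +/+ and 4 Rragc S74N/+ libraries with codes over 450 the log2 fold change was -0.50 (adjusted p = 0.0495). Ulk2, the related kinase, and Atg13 and Atg101, the subunits that regulate the kinases, were within 0.08 of 0 on the log2 scale.

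Of the 7 genes of the class III PI3-kinase and its regulators, 6 were below 0 and none was called. Becn1, the Beclin 1 scaffold and the most abundant, was at 601.6, 607.4, 555.7, 526.3 and 580.8 normalized counts in Rragc +/+ and at 480.0, 507.3, 572.7, 524.8 and 553.7 in Rragc S74N/+. The genotypes overlapped (log2 fold change -0.12, SE 0.08). The 3 genes at an unadjusted p under 0.05 were all lower: Atg14, the subunit that directs the complex to autophagy, at -0.32 (adjusted p = 0.152, limma), Uvrag, the subunit of the alternative endosomal complex, at -0.33 (adjusted p = 0.221), and Pik3r4, the regulatory kinase-like subunit Vps15, at -0.20 (adjusted p = 0.309). Uvrag, with the largest difference of the step, was at 231.0, 210.8, 179.2, 188.7 and 167.6 normalized counts in wild-type mice against 131.8, 191.4, 176.6, 155.2 and 127.5 in mutant mice, which overlap by 3 wild-type and 2 mutant values. Its difference was smaller among the libraries with codes over 450, at -0.15 (adjusted p = 0.677). Atg14 spanned 105.5 to 133.4 in wild-type and 90.9 to 107.2 in mutant mice, and only the lowest wild-type and the highest mutant mouse crossed. Pik3c3, the catalytic subunit Vps34, was at -0.04, and Ambra1 and Rubcn, an activator and an inhibitor of the complex, were at -0.06 and 0.07.

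The 5 measured genes of phagophore growth and lipid transfer were not called either, and 4 of them were above 0. Vmp1, an endoplasmic reticulum scramblase and the most abundant, was at 798.7, 768.4, 624.8, 676.4 and 627.8 normalized counts in Rragc +/+ and at 834.7, 844.6, 689.4, 733.4 and 734.6 in Rragc S74N/+ (log2 fold change 0.14, SE 0.09). Wipi1, a reader of the lipid that the PI3-kinase makes, had the largest difference, with 402.567, 458.005, 704.221, 647.455 and 644.890 against 586.192, 586.293, 752.439, 612.804 and 570.203. The 2 low wild-type values belonged to the libraries with codes below 450, and the log2 fold change of 0.15 (SE 0.14) turned to -0.09 among the others. Wipi2, its relative that recruits the conjugation machinery, was at 0.11, and the lipid transfer proteins Atg2a and Atg2b were at 0.13 and -0.04.

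None of the 10 conjugation genes was called, and 3 reached an unadjusted p under 0.05 in different directions. Atg12, the ubiquitin-like protein that is joined to Atg5 and the most abundant of the step, was at 416.3, 476.7, 437.7, 447.0 and 463.4 normalized counts in Rragc +/+ and at 551.1, 621.6, 512.8, 545.6 and 505.0 in Rragc S74N/+. Every mutant mouse was above every wild-type mouse, with a log2 fold change of 0.29 (SE 0.08), but the adjusted p was 0.0759 in limma. It ranged from 0.0292 to 0.190 over 22 other settings, of which only DESeq2, at 0.0292, called the gene. Atg10, the E2-like enzyme that carries Atg12 to Atg5, had the largest difference, at 105.9, 107.6, 132.7, 117.9 and 102.5 in Rragc +/+ and 95.8, 92.9, 73.6, 103.8 and 76.9 in Rragc S74N/+. Only the lowest wild-type mouse was under the highest mutant mouse (log2 fold change -0.36, SE 0.13, adjusted p = 0.175). Atg7, the E1-like enzyme that activates both Atg12 and the Atg8 proteins, was at 132.9 ± 20.6 in Rragc +/+ and 163.3 ± 16.1 in Rragc S74N/+ (SD, n = 5 each), with a log2 fold change of 0.30 (SE 0.13, adjusted p = 0.242). Atg3, the E2-like enzyme of the Atg8 proteins, was at -0.24, the Atg12 partners Atg5 and Atg16l1 were at 0.00 and 0.03, and the 4 Atg4 proteases that process Atg8 proteins ran from -0.17 for Atg4c to 0.22 for Atg4a.

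**Figure D4:**
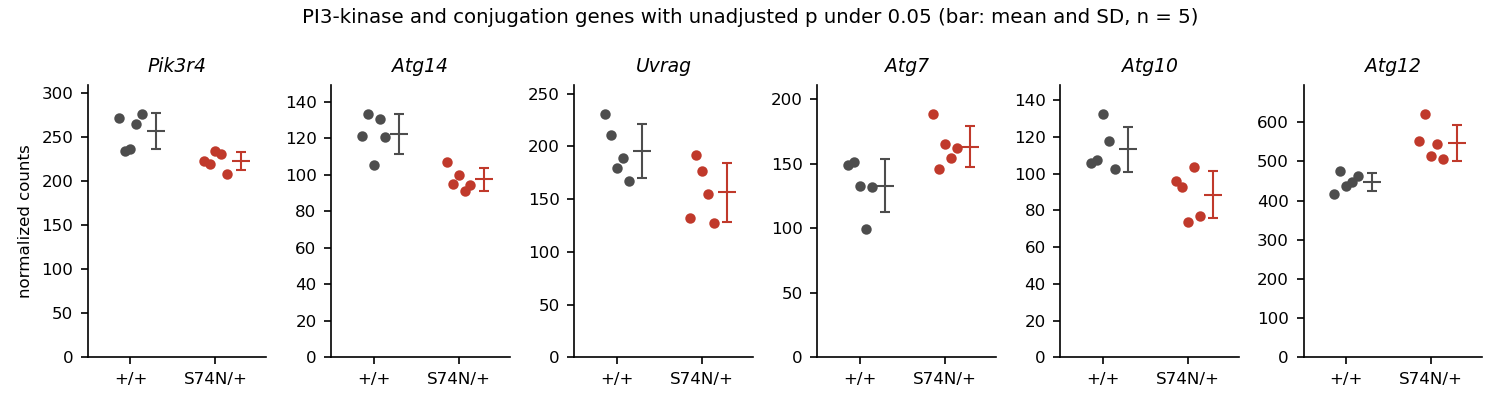
Normalized counts (vertical axes, from 0) in each Rragc +/+ (grey) and Rragc S74N/+ (red) kidney for the 6 PI3-kinase and conjugation genes with an unadjusted p under 0.05, with the mean and SD of the 5 mice. Pik3r4, Atg14, Uvrag and Atg10 are lower and Atg7 and Atg12 higher in Rragc S74N/+. Only Atg12 shows no overlap, from 416.3 to 476.7 against 505.0 to 621.6, and none has an adjusted p under 0.05 in limma.

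The Atg8 genes held the 1 gene that limma called. Gabarapl1, a GABARAP-family protein that joins autophagosome membranes and binds cargo and fusion factors, was at 5688, 6030.5, 6809, 6268 and 6638 normalized counts in Rragc +/+ and at 4149, 4084, 4566, 3808 and 3425 in Rragc S74N/+. The highest mutant mouse, at 4566, was below the lowest wild-type mouse, at 5688, and the means were 6286.5 ± 452.8 and 4006.4 ± 423.3 (SD, n = 5 each). The log2 fold change was -0.65 (SE 0.09, 95% confidence interval -0.84 to -0.47; adjusted p = 0.000166, limma; two-sided exact permutation p = 0.00794, lower in 5 of 5 mice). It passed in all 22 other settings, with adjusted p from 1.13e-10 to 0.00624. Among the libraries with codes over 450 the log2 fold change was -0.73, so the difference was as large without the 3 libraries of the other run, and with the run as a covariate it was -0.67. The 3 distal convoluted tubule markers and 2 of the 4 thick ascending limb markers, Umod and Kcnj1, were lower in the same mice. So were the proximal tubule markers Slc5a2 and Slc5a12 and the intercalated cell marker Slc4a1. The thick ascending limb marker Cldn16 and the proximal tubule markers Slc22a6 and Slc13a3 were higher, and Slc12a1 was not called.

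The promoter of Gabarapl1 is shown because it is the gene that limma called. Its RefSeq window held no CACGTG. Reading it showed 1 match to TAAACA, the core of the forkhead sites that FoxO factors bind, 94 bases before the start; this motif was added after the window was read. TAAACA stood on either strand in 13.4% of all windows and in 12.2% of the windows of the 37 genes, in 6 of these genes, so the match is a common one. The 200 bases that end 51 bases before the start, with that match in capitals, are as follows.

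Gabarapl1, GRCm38.p6 chr6:129532942-129533141, + strand: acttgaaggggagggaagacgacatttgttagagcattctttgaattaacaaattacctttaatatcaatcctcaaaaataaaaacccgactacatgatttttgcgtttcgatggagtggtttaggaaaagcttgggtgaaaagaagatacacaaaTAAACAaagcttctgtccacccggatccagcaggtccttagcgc

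Map1lc3b, the LC3 protein used as the usual marker of autophagosomes, was at 1596, 1473, 1628, 1792 and 1769 normalized counts in Rragc +/+ and at 1159, 1442, 1488, 1334 and 1211 in Rragc S74N/+. All but 1 of the mutant mice were below every wild-type mouse. The log2 fold change was -0.32 (SE 0.09), and the adjusted p of 0.0539 in limma lay just above the threshold, with 0.00724 to 0.164 over the 22 other settings, of which 6 called it. Among these 6, DESeq2 gave 0.0215, leaving out Rragc +/+ replicate 2 gave 0.0417 and leaving out Rragc S74N/+ replicate 3 gave 0.0320. Map1lc3a, the paralog LC3A, went the other way, at 482.0, 442.9, 450.2, 407.3 and 383.3 in Rragc +/+ and 591.9, 423.7, 604.3, 522.9 and 543.9 in Rragc S74N/+. One mutant mouse, replicate 2 at 423.7, was inside the wild-type range and the others were above it. The log2 fold change of 0.30 (SE 0.10) did not pass (adjusted p = 0.136, limma), and without that mouse it was 0.39 (adjusted p = 0.0355). Gabarap and Gabarapl2, the other GABARAP-family proteins, were at -0.09 (95% confidence interval -0.26 to 0.08) and -0.10 (-0.26 to 0.06). RefSeq names 8 pseudogenes after Map1lc3 and 6 after Gabarapl2 but none after Gabarapl1 or Gabarap. The names do not say whether the Map1lc3 copies resemble Map1lc3a or Map1lc3b. Reads that also match a copy may be shared or lost, so the counts of Map1lc3a, Map1lc3b and Gabarapl2 are less certain.

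In 3′ tags, where a transcript gives reads from its end whatever its length, the Atg8 genes can be set beside each other. The limit above applies, because reads of Map1lc3a, Map1lc3b or Gabarapl2 lost to copies would raise the share of Gabarapl1. Gabarapl1 gave 60.2% to 64.5% of the family's normalized counts in Rragc +/+ and 50.8% to 55.6% in Rragc S74N/+. Map1lc3b gave 15.3% to 17.5% and 15.2% to 18.8%, with 4 of the 5 mutant mice above the highest wild-type mouse and 1 below the lowest. The shares of the other 3 genes were higher in every mutant mouse than in any wild-type mouse: Map1lc3a gave 3.60% to 5.10% and 5.54% to 8.07%, Gabarap 7.72% to 8.75% and 9.39% to 12.1%, and Gabarapl2 8.05% to 9.18% and 9.58% to 12.04%. Shares of a family sum to the whole, so a smaller Gabarapl1 share enlarges the others, and the levels of Gabarap and Gabarapl2 were slightly lower, not higher, in the mutant mice on average. The number of Map1lc3a counts per Map1lc3b count was 0.217 to 0.302 in Rragc +/+ and 0.294 to 0.511 in Rragc S74N/+. The 5 genes summed to 9454 to 10638 normalized counts in Rragc +/+ and to 6741 to 8217 in Rragc S74N/+. Without Gabarapl1 the sums were 3628 to 4000 and 3316 to 3651, so most of the lower total came from that gene. These are descriptions, without a test.

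**Figure D5:**
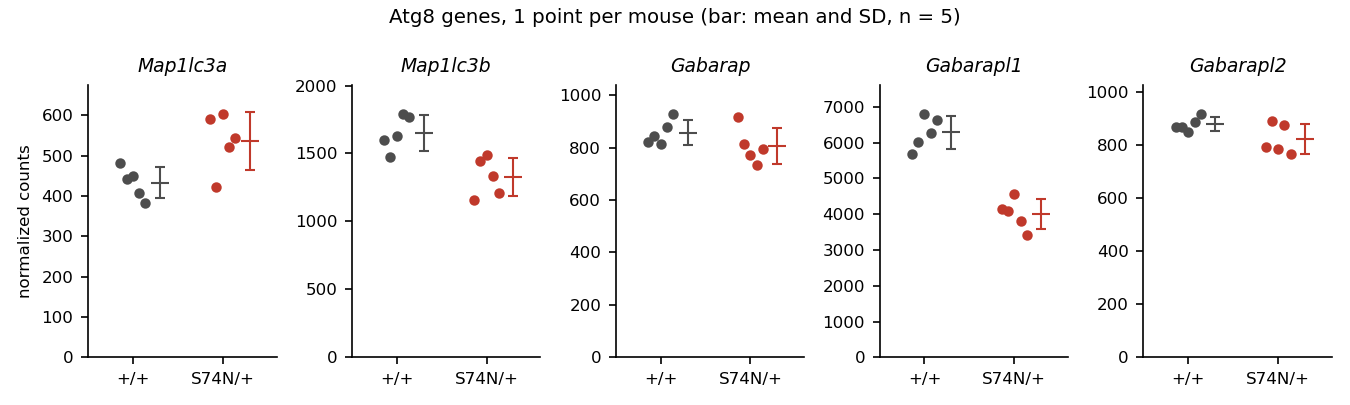
Normalized counts (vertical axes, from 0) of the 5 Atg8 genes in each Rragc +/+ (grey) and Rragc S74N/+ (red) kidney, with the mean and SD of the 5 mice. Gabarapl1 separates the genotypes, from 5688 to 6809 against 3425 to 4566, while the other 4 genes overlap.

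None of the 7 cargo receptor genes was called, and their log2 fold changes lay between -0.16 and 0.16. Sqstm1, which encodes p62, the receptor that links ubiquitinated cargo to Atg8 proteins, was the most abundant and had the largest difference, at 2994, 2897, 3316, 2941 and 2951 normalized counts in Rragc +/+ and 3185, 3278, 3894, 3282 and 3267 in Rragc S74N/+. Of the wild-type mice, 4 were below every mutant mouse, while the remaining one, at 3316, was among them. The log2 fold change of 0.16 (SE 0.08) did not pass (adjusted p = 0.342, limma), and its interval, 0.00 to 0.33, does not reach a 1.5-fold change. Tax1bp1, another ubiquitin-binding receptor, was at 0.13, and the mitophagy receptors Bnip3 and Bnip3l were at 0.12 and 0.03. Nbr1 and Calcoco1, a p62-related receptor and a receptor for endoplasmic reticulum and Golgi membranes, were at -0.11 and -0.06. Optn, a ubiquitin-binding mitophagy receptor, was scarce, at 29.6 normalized counts on average, with an interval from -0.65 to 0.33.

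Epg5, the tether that lets autophagosomes fuse with lysosomes, was at 33.8, 37.4, 48.8, 30.0 and 32.0 normalized counts in Rragc +/+ and at 47.4, 30.7, 17.9, 28.7 and 27.3 in Rragc S74N/+. The mutant kidneys spread more widely than the wild-type ones, and the log2 fold change of -0.30 (SE 0.23) did not pass (adjusted p = 0.617, limma). At this level the interval, -0.79 to 0.19, covers changes of more than 1.5-fold.

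Of 71 other genes of the pathway, 68 were in the table and 67 were tested. Limma called 4 lower and none higher in Rragc S74N/+. The 4 genes called are 5.97% of those tested, beside 3.69% of all genes. No call was made among the 9 tested of the other core autophagy genes, the 14 of autophagosome-lysosome fusion or the 12 other transcription factors of autophagy genes. Among those factors, the FoxO genes Foxo1, Foxo3 and Foxo4 were at log2 fold changes of 0.00, -0.25 and 0.05. Of the fusion genes, Snap29, a SNARE of autophagosome-lysosome fusion, had the smallest p (log2 fold change -0.36, adjusted p = 0.130, limma).

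Among 16 other selective autophagy receptors and adaptors, Wdfy3 fell. It encodes Alfy, a large scaffold that brings protein aggregates to the autophagy machinery, and was at 764.1, 865.3, 829.0, 877.9 and 921.4 normalized counts in Rragc +/+ and at 502.7, 559.3, 584.3, 576.2 and 605.2 in Rragc S74N/+. All mutant kidneys were below all wild-type ones, with a log2 fold change of -0.59 (SE 0.08, adjusted p = 0.000284, limma), and the gene passed in all 22 other settings.

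The other 3 genes that fell belong to the 16 tested genes that control where the MiT/TFE factors are. Rragd, a GTPase that can take the place of RagC and is itself a target of these factors, was at 164.3, 153.9, 165.6, 172.6 and 174.0 normalized counts in Rragc +/+ and at 98.7, 104.1, 71.5, 86.0 and 114.8 in Rragc S74N/+. No values overlapped (adjusted p = 0.000937, limma). Flcn, the folliculin subunit of the complex that acts on RagC and RagD, was at 70.3, 65.8, 89.6, 85.8 and 66.2 against 38.9, 49.2, 56.8, 49.4 and 51.6. The groups were again separate, but the call (adjusted p = 0.0341) was made in only 4 of the 10 fits that left out 1 mouse, and was lost (adjusted p up to 0.106) without Rragc +/+ replicate 3, 4 or 5 or Rragc S74N/+ replicate 1, 2 or 4. Fnip1, folliculin's partner, was at 359.7, 426.9, 366.3, 374.1 and 356.6 against 349.1, 278.7, 240.7, 299.5 and 229.6, with its highest mutant value just under its lowest wild-type value. Its call (adjusted p = 0.0354, limma) was made in 3 of those 10 fits. It was lost (adjusted p up to 0.0858) without Rragc +/+ replicate 2, 3, 4 or 5 or Rragc S74N/+ replicate 2, 3 or 5. In limma without a trend it was lost too (adjusted p = 0.111). Mcoln1, the lysosomal calcium channel, and the calcineurin genes Ppp3ca, Ppp3cb and Ppp3r1, which release the factors from the cytoplasm, were not called, nor were Mtor and Rptor, with log2 fold changes of -0.01 and 0.23.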

How the data were processed

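Total RNA of kidneys was sequenced from the 3′ end (QuantSeq, stranded). The authors aligned reads with TopHat2 2.0.10 and Bowtie 1.0.0 (SAMtools 0.1.19) to GRCm39 and counted them with HTSeq 0.6.1 on GENCODE genes. Multiple hits were allowed in the alignment, and how such reads were counted is not stated. Genes with near-identical copies may therefore share or lose reads. The deposited values are a normalized signal: counts divided by a size factor per library. Whole reads were recovered for 100% of values (tolerance 0.01); edgeR on them called 480 genes and DESeq2 648, against 487 in limma.

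Genes with at least 10 normalized counts in at least 5 mice were fitted with limma 3.58.1 (R 4.3.3, trend) on log2(value + 1). Folds of low genes are therefore understated. Single genes were also tested by a two-sided exact permutation test over all 252 divisions of the mice into 5 and 5 (numpy 2.4.6). The quantiles of the confidence intervals came from scipy 1.17.1. edgeR 4.0.16, DESeq2 1.42.0, other pseudocounts, filters, scalings, the run of library codes and each mouse left out were alternatives. Groups came from the genotype labels; replicate numbers are in deposit order. Chi-square per gene between replicates of a genotype was at least 2.16, so no such pair was 1 library deposited again; pairs across genotypes were not compared.

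Members and lists were chosen with earlier results of these data known. Values in every mouse are given for the MiT/TFE factors, called genes, and each step's most abundant and most different gene. Counting error limits genes near 30 counts. Promoters came from RefSeq GRCm38.p6, not the build of the files.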

Additional observations from a re-analysis of the deposited data

Results flagged for a closer look

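Among the 88 sets of 5 values (44 genes in each genotype), 5 held a mouse far from the other 4, with a gap to its neighbour of more than 0.71 of the range; chance gives about 1 in 20. Sqstm1 stood apart in both genotypes, at 3316 normalized counts in Rragc +/+ replicate 3 and at 3894 in Rragc S74N/+ replicate 3. In the latter mouse, Wipi1 was also the highest by far, at 752.4, and so was Bnip3, at 943.7. Atg4d was low in Rragc S74N/+ replicate 5, at 143.0.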

How the results depend on the processing

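Over 22 alternatives (12 of the fit or the libraries used and 10 that left out 1 mouse), Gabarapl1 stayed lower with an adjusted p under 0.05, 38 genes were called in none, and 5 others were called in some. The number called lower was 2 with TMM rescaling, quantile normalization, DESeq2 and the libraries with codes over 450, and 3 with the run as a covariate; the number called higher was 1 with DESeq2 and with the covariate. Leaving out 1 mouse gave 1 to 3 lower and 0 to 1 higher. The further genes were Map1lc3b, Mitf, Ulk1, Atg12 and Map1lc3a. Over all genes, 2.21% of those tested were called without a trend (291), 6.30% with the covariate (832), and 2.24% to 3.53% without 1 mouse (2.24% without Rragc +/+ replicate 5 and 2.35% without Rragc +/+ replicate 4). Of the other pathway genes, 1 was called higher with the covariate, and 2 to 5 were called lower without 1 mouse. Wipi1 changed sign to -0.086 among codes over 450, and 11 genes whose log2 fold change was within its standard error changed sign in some setting, without passing in any. The median log2 fold change of the 44 genes stayed between -0.08 and -0.02. Depth limits Epg5, Optn and Tfec. No paired analysis was possible because the labels give the mice no shared numbers.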
